A study of Macaca mulatta with 12 samples.

Results

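Liver biopsies taken at the end of an ethanol induction were compared between 3 male rhesus macaques that later became very heavy drinkers (VHD) and 3 that later became light drinkers (LD). These 6 libraries are all the samples of both classes taken after the induction, out of 12 in the series. The other 6 come from the same animals at baseline. All animals were about 4.6 years old and had the same induction of 90 days, drinking 0.5, 1 and 1.5 g/kg of ethanol daily in successive periods of 30 days. The classes were set only afterwards, from 12 months of free access in which LD animals reached 1.5 and VHD animals 4.0 g/kg daily. At the time of the biopsy the classes therefore did not differ in assigned ethanol dose, and neither class was an ethanol-free control. Each library came from 1 animal, and mRNA and microRNA (miRNA) were sequenced from the same RNA.

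The liver clears most ingested ethanol. Alcohol dehydrogenases, catalase and the cytochrome CYP2E1 oxidise it to acetaldehyde, and aldehyde dehydrogenases turn acetaldehyde into acetate. The same cells make and export lipids, convert cholesterol to bile acids and secrete most plasma proteins, and their metabolism follows a daily rhythm driven by a clock of transcription factors. miRNAs are short RNAs that lower the output of mRNAs they pair with, and miR-122 is the most abundant one of hepatocytes.

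Transcript counts of the 6 libraries ran from 7180516 to 21530865 and mature miRNA counts from 157174 to 613359. Abundances are given as CPM, counts scaled to a common depth with library totals corrected by TMM factors, and compare libraries for the same gene. The hepatocyte markers were abundant in every library, with a summed level of 151222 CPM in the lowest. On the first principal component of these 6 libraries (46.4% of the variance), LD 1 and VHD 2 lay at -78.2 and -89.4, VHD 1 at -3.63, and LD 2, LD 3 and VHD 3 at 63, 64.6 and 43.7. Each class thus had libraries at both ends, and the largest difference among the 6 livers did not follow later drinking. Spearman correlations over genes were 0.871 to 0.951 within a class and 0.854 to 0.934 between classes. VHD 2 stood apart in its miRNAs, with 11.9 miRNA counts per 1000 transcript counts against 19.5 to 43.5 in the other 5.

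No gene differed between the classes after induction at an adjusted p under 0.05 in the quasi-likelihood test of edgeR, out of 18373 tested, a called share of 0%. At an unadjusted p under 0.05 there were 448 genes, 265 with higher and 183 with lower values in VHD, where 919 would be expected without any difference. DESeq2, run as an alternative, gave 535 at this level and called 1 gene. Standard errors on the log2 scale had a median of 0.50, so a gene of typical spread had to differ several-fold to stand out. The spread behind the p-values is pooled over the 4 groups of class and time in all 12 libraries. The baseline and post-induction biopsies of an animal entered it as if independent. The median log2 fold change was -0.01, and 49.6% of genes had higher values in VHD. All 3 VHD libraries lay above all 3 LD libraries for 491 genes (2.67% of those tested) and below them for 396 (2.16%). These shares are the background for counts of genes without overlap after induction. At baseline the shares were 4.13% above (759 genes) and 3.08% below (565), the background for counts at baseline.

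The class difference after induction was also set against the difference that the same animals had at baseline. No gene passed this test (0%), with 239 at an unadjusted p under 0.05 and 301 with DESeq2, which called 1 gene. The fit held no term for the animal, so the biopsies of an animal were not paired in the differences from baseline given below. An edgeR fit with such a term also called 0 genes, with 177 at an unadjusted p under 0.05. Of the 887 genes without overlap after induction, 77 were without overlap in the same direction at baseline and 19 in the opposite direction, against 1324 of all 18373 genes without overlap at baseline in either direction. At baseline the same test called 1 gene (0.00544%), and it is also the gene closest to the threshold after induction.

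That gene, ENSMMUG00000018314, carries no symbol in the tables used here. It lies on chromosome 14 at 11103782 to 11114307, plus strand, of Mmul_8.0.1. After induction it stood at 175, 152 and 171 CPM in LD 1, 2 and 3 and at 0.69, 2.19 and 0.632 CPM in VHD 1, 2 and 3. It was on in every LD liver and close to off in every VHD liver, with 69.3-fold between the nearest libraries of the classes. The log2 fold change was -7.10 ± 0.93 (SE), which is 137-fold, at an adjusted p of 0.056 in edgeR. The adjusted p was 0.0427 without a filter on low counts, 0.0285 in a fit to the 6 post-induction libraries alone, 2.17e-17 with DESeq2 and 2.51e-05 with limma-trend on the deposited normalized values. Other edgeR settings did not pass. There the lowest adjusted p of any gene was 0.0599 with RLE in place of TMM factors and 0.0677 with at least 1 CPM in 3 libraries. With 1 of the 6 libraries left out it was 0.125 to 0.87. At baseline it stood at 185, 187 and 276 CPM in LD against 0.104, 3.63 and 0.518 CPM in VHD (log2 fold change -7.22, adjusted p = 0.0463). The difference between the 2 times was 0.12 ± 1.07, and so the split between the animals was already present before the induction.

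The gene sits between PLAAT3 and PLAAT4, members of a family of small phospholipases and acyltransferases that act on membrane lipids. PLAAT3, on chromosome 14 at 11013775 to 11049180, stood at 80.3, 64.5 and 61.3 CPM in LD and 42.9, 47.5 and 50.1 CPM in VHD after induction. Its classes did not overlap at either time, with a log2 fold change of -0.55 ± 0.29 at both, but its adjusted p was 0.999. PLAAT4 and PLAAT5, LGALS12 and ATL3, the other tested neighbours, overlapped between the classes. Genes of this family resemble each other, and how the counting shared reads among near-identical copies is not given in the sources used here.

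**Figure D1:**
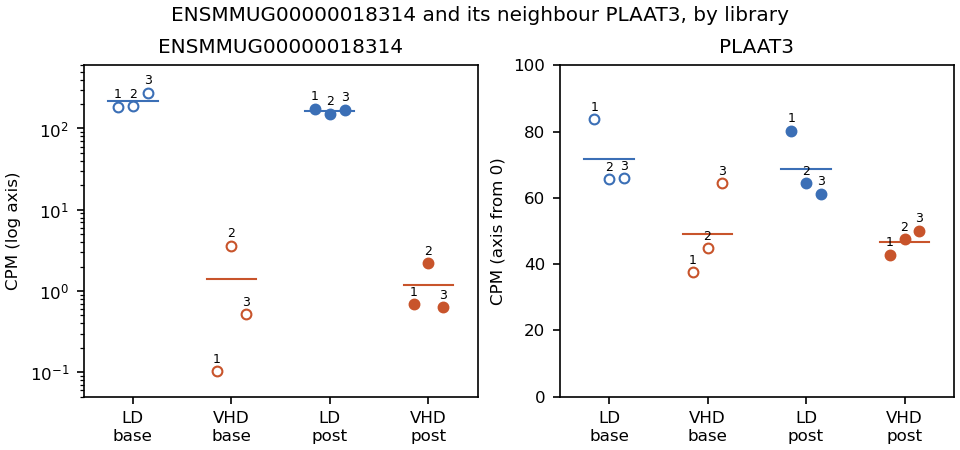
CPM of ENSMMUG00000018314 (left, log axis) and PLAAT3 (right, linear axis from 0) in each library, by class and time. Points are libraries with their animal number, open at baseline and filled after induction, and lines are means of 3. The 3 LD animals stay between 152 and 276 CPM and the 3 VHD animals below 4 CPM in the left panel.

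By rule, 12 genes per direction with a symbol, an average log2 CPM of at least 1 and no overlap are taken, those with the lowest unadjusted p, and 288 genes lay higher and 285 lower at this level. None passed the test: the adjusted p of edgeR was 0.999 for each of the 24, and unadjusted values ran from 0.000335 to 0.00791 for the higher and from 0.00228 to 0.0127 for the lower ones. They are given as values.

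Among the higher ones, a Y RNA gene (ENSMMUG00000028053, chromosome 1, 201998038 to 201998141) had the lowest p. Y RNAs are small cytoplasmic RNAs bound by the Ro protein. It stood at 15.1, 14.7 and 14.5 CPM in LD and 45.1, 39.3 and 34.2 CPM in VHD, a log2 fold change of 1.42 ± 0.30. The LD values were almost alike, and the lowest VHD library was 2.26-fold above the highest LD library. Y RNA genes are near-identical copies, so reads may be split among them. LRRC20, a leucine-rich repeat protein (chromosome 9, 62063306 to 62150852), stood at 2.97, 3.75 and 2.97 CPM in LD and 6.49, 9.91 and 6.14 CPM in VHD, 1.22 ± 0.34. Its baseline values overlapped, and the difference from the baseline fold change was 1.34 ± 0.48 (unadjusted p = 0.0155, adjusted p = 1 in edgeR).

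MDGA1, a GPI-anchored adhesion protein, stood at 3.5, 2.26 and 2.11 CPM in LD and 10.8, 8.05 and 6.23 CPM in VHD, a log2 fold change of 1.65 ± 0.47. SLC25A42, the mitochondrial carrier of coenzyme A, stood at 2.6, 2.91 and 2.11 against 6.9, 6.84 and 4.24 CPM, 1.23 ± 0.38. In both genes all 3 VHD livers contributed to the difference.

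In a pair of other genes, 1 animal carried much of the difference. SEMA7A, a membrane-bound semaphorin, stood at 0.636, 1.1 and 0.575 against 2.21, 1.92 and 7.94 CPM (2.38 ± 0.73), and 1.41 without VHD 3. RAX, a homeobox transcription factor of the developing eye, stood at 1.22, 4.53 and 5.65 against 10.1, 6.68 and 76.1 CPM (3.04 ± 0.97), and 1.17 without VHD 3. The same animal was the highest of the 6 for both genes at baseline, with 4.07 and 19.7 CPM.

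PAEP, the secreted lipocalin glycodelin, stood at 8.21, 7.95 and 1.53 CPM in LD and 11.2, 54.8 and 18 CPM in VHD, a log2 fold change of 2.24 ± 0.63. LGALS3BP, a secreted galectin-binding glycoprotein, stood at 10.8, 4.59 and 6.23 against 11.5, 32.7 and 12.5 CPM (1.39 ± 0.44). DAO, the peroxisomal D-amino acid oxidase, stood at 27.6, 10.1 and 7.57 against 30.9, 99.4 and 29.2 CPM (1.81 ± 0.58). In these 3 genes VHD 2 was the highest by far. LD 1, which lay at the same end of the first component as VHD 2, was the highest LD library. Without VHD 2 the log2 fold change was 1.30 for PAEP, 0.72 for LGALS3BP and 0.99 for DAO. PAEP and LGALS3BP were also the 2 of the 12 genes that lay above LD without overlap at baseline (4.13% of all genes), where VHD 2 did not stand alone.

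SBNO2, a transcriptional coregulator known from the response of macrophages to interleukin 10 (chromosome 19, 885544 to 957393), stood at 21.1, 15.1 and 23.1 CPM in LD and 126, 36.6 and 33 CPM in VHD, a log2 fold change of 1.72 ± 0.55. VHD 1 was far above the rest, and without it the value was 0.81. IFI27L1, a relative of the interferon-induced gene IFI27, stood at 0.901, 1.16 and 1.25 against 5.24, 4.22 and 2.39 CPM (1.83 ± 0.54), with all 3 VHD livers clearly above.

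CD83, a surface protein of mature dendritic cells and activated lymphocytes (chromosome 4, 14388968 to 14409030), had the lowest p among the lower ones. It stood at 4.5, 3.56 and 5.08 CPM in LD and 0.828, 1.64 and 1.62 CPM in VHD, a log2 fold change of -1.63 ± 0.43. The counts behind the VHD values were 6, 30 and 36. In whole biopsies fewer cells of a type and less RNA per cell cannot be told apart. At baseline the order of the class means was the other way round (2.91 ± 1.54 in LD and 3.78 ± 0.584 CPM in VHD, SD, n = 3) with overlap. The difference from baseline was -2.06 ± 0.61 (unadjusted p = 0.00466, adjusted p = 1 in edgeR).

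ARNTL, also called BMAL1, is the activating transcription factor of the circadian clock (chromosome 14, 53008510 to 53118970). It stood at 12.2, 8.47 and 15.5 CPM in LD and 3.31, 2.74 and 4.78 CPM in VHD, a log2 fold change of -1.73 ± 0.54. The highest VHD library was 1.77-fold below the lowest LD library. Its baseline values overlapped widely, 9.34, 5.69 and 24.1 CPM for LD against 23.7, 14.3 and 8 CPM for VHD, and the difference from baseline was -1.95 ± 0.75 (unadjusted p = 0.0212, adjusted p = 1 in edgeR).

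Of the other 10 lower genes, 5 already lay below LD without overlap at baseline, where 3.08% of all genes did. PIK3C2G, a class II phosphoinositide 3-kinase, was one of them (chromosome 11, 19114169 to 19518537). It stood at 25, 19.7 and 24.2 CPM in LD and 9.38, 5.97 and 14 CPM in VHD after induction (-1.23 ± 0.40), and at baseline its log2 fold change was -1.41. MCOLN1, the calcium channel of lysosomes, stood at 9.8, 5.75 and 8.82 against 3.45, 5.04 and 4.38 CPM (-0.91 ± 0.31), and the remaining 3 were TC2N and the nucleolar RNA genes SNORA53 and U3. Both nucleolar RNAs belong to families with near-identical copies. The log2 fold changes were -1.09 for TC2N, -1.30 for SNORA53 and -1.23 for U3, and all 5 had negative values at both times.

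The last 5 overlapped at baseline. They were RUFY1, an adaptor of early endosomes (-1.24 ± 0.42), TMEM201, an inner nuclear membrane protein (-0.86 ± 0.29), the zinc finger gene ZSCAN32 (-1.03 ± 0.35), ENTREP3 (-1.19 ± 0.36) and TJAP1, a tight junction-associated protein (-0.90 ± 0.31). TJAP1 stood at 4.35, 4.14 and 5.08 CPM in LD and 2.62, 2.35 and 2.3 CPM in VHD, with a difference from baseline of -1.11 ± 0.44 (unadjusted p = 0.0245, adjusted p = 1 in edgeR). TMEM201 stood at 14.3, 12.2 and 11.8 against 7.45, 6.52 and 7.17 CPM, a narrow spread in both classes.

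**Figure D2:**
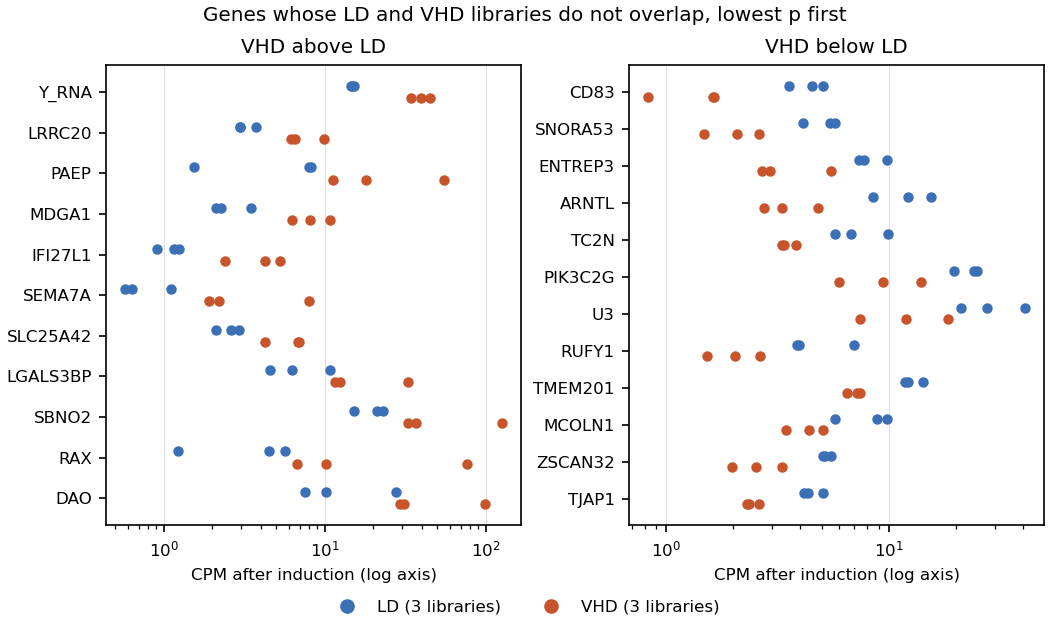
CPM after induction (log axis) of the genes described here among the 12 above and the 12 below LD with the lowest unadjusted p among genes without overlap. Each point is 1 library, with 3 per class; in the left panel single VHD libraries lie far to the right for SBNO2 and RAX.

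Of the 13279 genes at this level of abundance, 7 had at least 2-fold between the nearest libraries of the classes. Besides ENSMMUG00000018314, the Y RNA gene and CD83 they held QRICH2, which is named after its values were seen. QRICH2, a sperm flagellum gene, stood at 1.06, 1.03 and 1.15 CPM in LD and 2.35, 2.79 and 2.3 CPM in VHD, a log2 fold change of 1.20 ± 0.44 (adjusted p = 0.999 in edgeR).

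The clock list had 19 tested genes, of which 11 had higher values in VHD, with a median log2 fold change of 0.26. ARNTL was its only member below LD without overlap, and CIART and HLF lay above. CIART encodes a repressor of the clock; it stood at 4.5, 3.81 and 2.49 CPM in LD and 7.31, 6.73 and 5.68 CPM in VHD (0.86 ± 0.65). HLF, an output transcription factor that binds D-box elements, stood at 2.12, 1.88 and 2.4 against 4.69, 2.63 and 3.65 CPM (0.77 ± 0.39).

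NR1D1 encodes the nuclear receptor REV-ERBα, which represses ARNTL. It stood at 2.65, 3.04 and 1.63 CPM in LD and 7.86, 15.9 and 1.8 CPM in VHD, a log2 fold change of 1.79 ± 0.73, and 0.93 without VHD 2. VHD 3 was within the LD range, although its ARNTL was below every LD library. PER3 (0.73 ± 0.44, and 0.31 without VHD 1), DBP (0.86 ± 0.61, and 0.10 without VHD 2) and NFIL3 (-0.80 ± 0.54, and -0.52 without VHD 2) overlapped between the classes; DBP activates and NFIL3 represses through the same D-box elements. CIART, DBP and NFIL3 are named after their values were seen. Most of the 8 clock genes with lower values in VHD are not described, so the genes named do not stand for the whole list. No clock gene passed the test, and the hour of the biopsies is not given in the sources used here.

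Genes that oxidise ethanol and acetaldehyde showed no separation of the classes. All 14 tested members overlapped, 8 had higher values in VHD and the median log2 fold change was 0.03. CYP2E1, an enzyme known to accumulate under ethanol, stood at 2038, 1872 and 1812 CPM in LD and 2234, 1586 and 1489 CPM in VHD (-0.11 ± 0.39). ADH4, an alcohol dehydrogenase of hepatocytes, stood at 998, 732 and 1422 against 1192, 655 and 983 CPM (-0.16 ± 0.44). The 18 tested cytochromes of drug metabolism had a median of -0.05 and no member without overlap. NNMT, which methylates nicotinamide, stood at 182, 15 and 66.2 CPM in LD and 36, 24.7 and 24.1 CPM in VHD (-1.63 ± 0.69), and -0.53 without LD 1.

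Of the 21 tested genes of bile acid synthesis and transport, CYP7A1 was the only one without overlap. It encodes the rate-limiting enzyme that turns cholesterol into bile acids (chromosome 8, 56499017 to 56509875). It stood at 9.64, 12.2 and 42.7 CPM in LD and 7.59, 1.2 and 6.45 CPM in VHD, a log2 fold change of -2.09 ± 0.91 (unadjusted p = 0.0378, adjusted p = 0.999 in edgeR). LD 3 was far above the other LD livers, and without it the value was -1.12. At baseline VHD 1 and 2 had the highest values (27.3 and 48.4 CPM), VHD 3 the lowest (2.15 CPM), and LD 9.05 to 15.6 CPM. The difference from baseline was -3.17 ± 1.26 (unadjusted p = 0.0254, adjusted p = 1).

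CYP7B1, of the alternative bile acid pathway, stood at 3.76, 2.13 and 3.35 CPM in LD and 2.21, 1.42 and 1.49 CPM in VHD (-0.88 ± 0.44). NR0B2, the nuclear receptor SHP that represses CYP7A1, stood at 22.9, 8.53 and 13.1 against 32, 99.9 and 7.49 CPM (1.64 ± 0.79), and 0.39 without VHD 2. The liver with the most NR0B2, VHD 2, was the one with the least CYP7A1, while VHD 3 had the least NR0B2 and a CYP7A1 level below every LD liver. The list as a whole had a median of -0.07, with 10 of 21 genes higher in value.

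**Figure D3:**
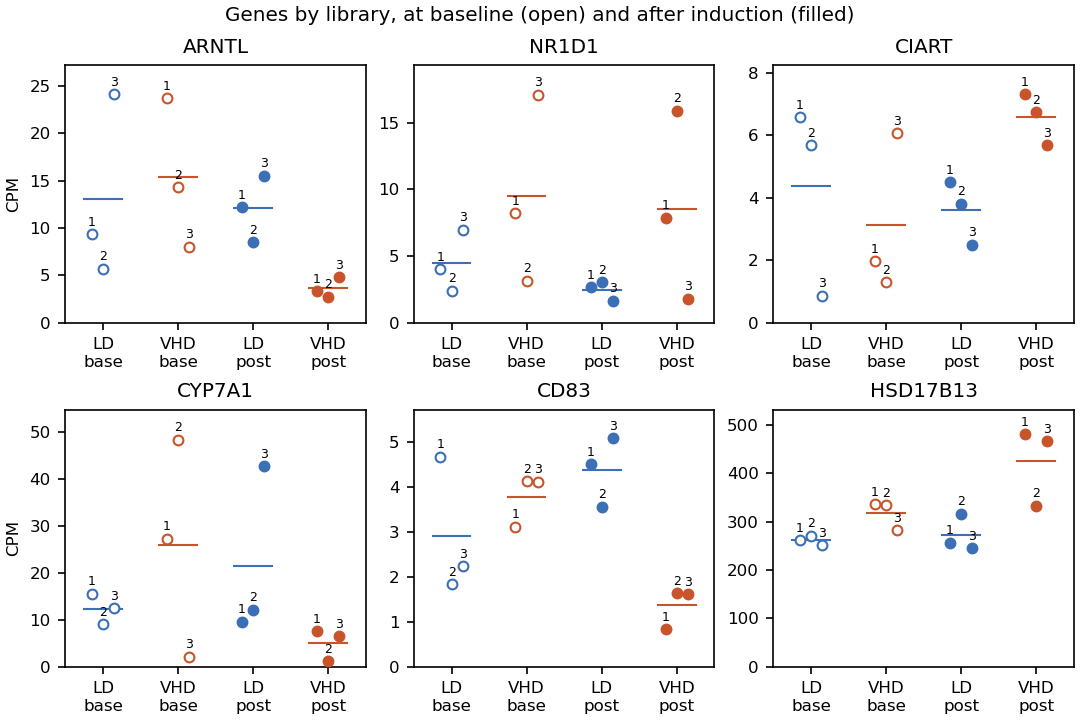
CPM of ARNTL, NR1D1, CIART, CYP7A1, CD83 and HSD17B13 in each library, by class and time, on linear axes from 0. Points carry the animal number, open at baseline and filled after induction, and lines are means of 3; the filled classes do not overlap in any panel but NR1D1.

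Cholesterol genes had the most positive median of the lists described here. Of 18 tested genes of cholesterol synthesis and uptake, 14 had higher values in VHD, with a median log2 fold change of 0.37 against -0.01 over all genes. None passed the test and 2 lay above LD without overlap, SREBF2 and NPC1L1. SREBF2, the transcription factor that turns on this pathway (chromosome 10, 83916568 to 83999633), stood at 78.4, 57 and 47.9 CPM in LD and 88.4, 94.7 and 96.6 CPM in VHD (0.61 ± 0.28, unadjusted p = 0.0505, adjusted p = 0.999 in edgeR). Its 3 VHD values were close together, and LD 1 was the highest of LD. NPC1L1, the sterol transporter, had 0.28 ± 0.32. LSS, the lanosterol synthase, stood at 7.58, 5.69 and 5.08 against 13.2, 7.17 and 10.6 CPM (0.75 ± 0.40). The median moved between 0.07 without VHD 3 and 0.90 without LD 1, since LD 1 was high in several of these enzymes.

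Fatty acid and triglyceride synthesis had 15 of 24 genes with higher values in VHD and a median of 0.21, between 0.02 and 0.42 with 1 library left out. FASN, the fatty acid synthase, stood at 237, 165 and 61.4 CPM in LD and 94.4, 145 and 541 CPM in VHD (0.75 ± 0.76). VHD 3 had most of it, and without that library the value was -0.37.

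Of 16 tested lipid droplet genes, 12 had higher values in VHD, and the median was 0.13. HSD17B13, a hepatocyte lipid droplet protein in which loss-of-function alleles are known to protect human livers (chromosome 5, 85647719 to 85669270), was the one without overlap. It stood at 257, 317 and 246 CPM in LD and 481, 333 and 466 CPM in VHD (0.64 ± 0.29, unadjusted p = 0.0416, adjusted p = 0.999 in edgeR). The gap between LD 2 and VHD 2 was narrow, 1.05-fold. It also lay above LD without overlap at baseline (262, 271 and 251 against 337, 334 and 283 CPM), with a log2 fold change of 0.28 ± 0.28. CIDEC, which fuses lipid droplets, stood at 0.212, 0.259 and 0.575 against 0.69, 0.493 and 2.48 CPM (1.89 ± 0.75), at very low levels and with overlap.

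Cytokine and NF-κB genes had mostly lower values in VHD after induction, and interferon-stimulated genes mostly higher ones by little. Of 19 tested cytokine and NF-κB genes, 3 had higher values in VHD and 16 lower, with a median of -0.18, between -0.31 and -0.13 with 1 library left out. All 19 overlapped and none passed the test. At baseline 14 of these 19 had higher values in VHD, with a median of 0.41, and the median difference between the times was -0.57. Among 35 interferon-stimulated genes 23 had higher values in VHD, with a median of 0.05, between -0.11 without VHD 2 and 0.13 without LD 3. MX1, an antiviral GTPase, stood at 29.9, 12.6 and 23 CPM in LD and 35, 63.4 and 22.4 CPM in VHD (0.88 ± 0.44), and 0.39 without VHD 2. IFI44L was the one member without overlap, below LD (0.795, 0.841 and 1.73 against 0.552, 0.602 and 0.406 CPM). CXCL9, a chemokine that draws T cells, stood at 14.6, 9.76 and 69.1 CPM in LD and 10.8, 1.37 and 3.07 CPM in VHD (-2.66 ± 0.91). LD 3 was the highest by far, also for CXCL10 (76.2 CPM against 5.2 to 25.8 in the other 5), and without LD 3 the value was -1.32 for CXCL9 and -0.11 for CXCL10.

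Heat shock proteins had the most negative median of these lists, -0.30, with 5 of 22 genes higher in value and none without overlap. BAG3, a chaperone partner, stood at 11.8, 11.2 and 32.3 CPM in LD and 6.49, 9.53 and 12.5 CPM in VHD (-0.94 ± 0.42). The highest value was again that of LD 3, and without it the log2 fold change was -0.27. Of 13 glucocorticoid-responsive genes, 10 had lower values in VHD (median -0.19), and ZBTB16, a transcription factor induced by glucocorticoids, was the one without overlap. It stood at 6.99, 12 and 8.05 CPM in LD and 3.86, 4.71 and 4.65 CPM in VHD (-1.02 ± 0.50), with a difference from baseline of -1.57 ± 0.72 (unadjusted p = 0.0475, adjusted p = 1 in edgeR), and -0.71 without VHD 2 at baseline. Acute phase genes had a median of -0.15 over 25, and 0.31 without LD 1. FGG, a fibrinogen chain, stood at 13333, 10879 and 14411 against 9290, 8230 and 7793 CPM (-0.61 ± 0.35), and CRP overlapped (-0.44 ± 0.67).

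Genes of glucose production and glycolysis had higher values in VHD for 19 of 27 (median 0.17, between 0.03 and 0.36 with 1 library left out), and 1 without overlap. Pericentral and periportal genes, which mark the ends of the liver lobule, had medians of 0.03 and 0.13, with 8 of 16 higher in value in each list. NKD1, a Wnt target of the pericentral list, stood at 1.22, 1.23 and 0.767 CPM in LD and 2.9, 3.01 and 1.89 CPM in VHD (1.25 ± 0.50), with no overlap. OAT, the other gene of that list without overlap, lay below LD (176, 155 and 132 against 107, 87.6 and 111 CPM, -0.60 ± 0.43). ZNRF3, also of that list, had lower values in VHD with overlap (-1.21 ± 0.62). Of 64 cytosolic ribosomal protein genes, 48 had higher values in VHD (median 0.27). Their sum was 25259 CPM in VHD 2 and 19374 CPM in LD 1, against 8169 to 12778 CPM in the other 4, and the median was -0.17 without VHD 2 and 0.90 without LD 1. The order of the 6 sums is the order of the libraries on the first principal component, with 1 library of each class at the high end. Genes of the urea cycle and amino acid breakdown (13 of 25 higher in value, median 0.04), of fatty acid oxidation (10 of 26, -0.12) and of the oxidative stress response (13 of 25, 0.08) lay near the median of all genes.

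**Figure D4:**
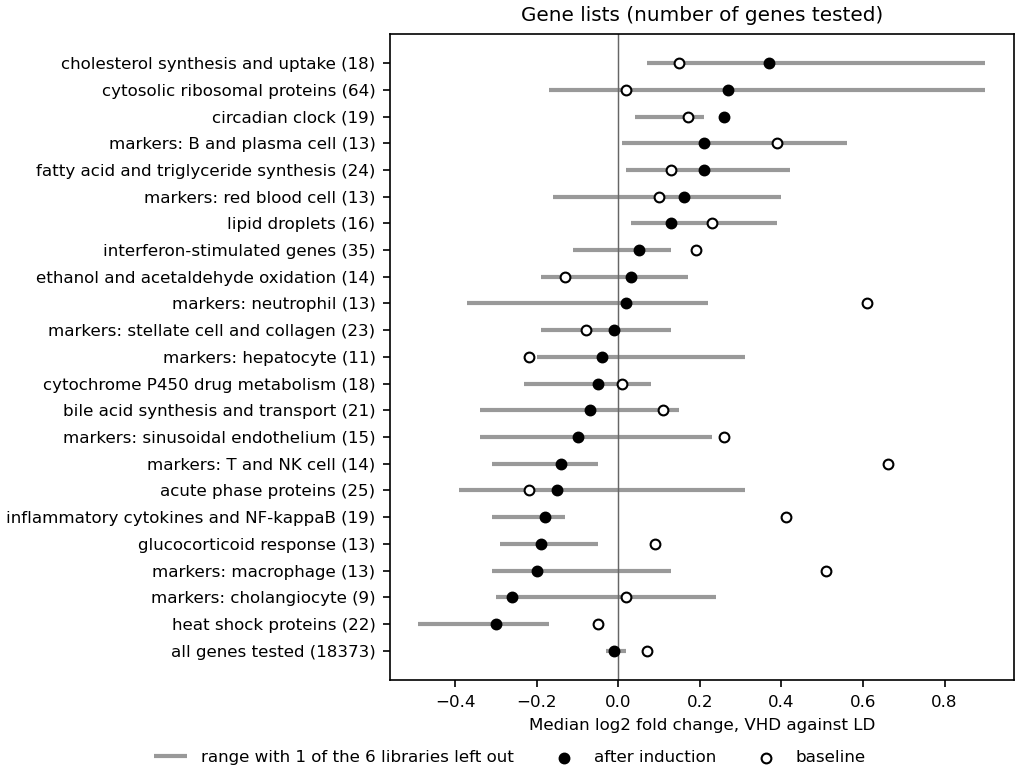
Median log2 fold change of VHD against LD for each gene list, after induction (filled) and at baseline (open), with the number of genes tested; the grey bar is the range of the post-induction median with 1 of the 6 libraries left out. Most bars include 0; cholesterol genes lie to the right and heat shock genes to the left, and the open points of the T and NK cell, neutrophil, macrophage and NF-κB lists lie to the right of the filled ones.

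None of the markers of other liver cells passed the test after induction. T and NK cell markers (14 tested of 24 names) summed to 27.9, 29.5 and 34.5 CPM in LD and 27.2, 27.4 and 26.5 CPM in VHD. These sums lay below LD in VHD, by little, and the median log2 fold change was -0.14. At baseline all 14 had higher values in VHD, with a median of 0.66. Macrophage markers (13 of 17 names) summed to 551, 266 and 494 against 395, 816 and 413 CPM, with a median of -0.20 after induction, and 0.13 without LD 3. Of these 13, 5 had higher and 8 lower values in VHD after induction. At baseline all 13 had higher values in VHD, with a median of 0.51.

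One macrophage gene, ADGRE1, which encodes F4/80, lay on different sides of LD before and after the induction. Of all 18373 genes tested, 19 did so without overlap. ADGRE1 stood at 3.66, 4.59 and 5.56 CPM in LD and 2.48, 3.61 and 2.93 CPM in VHD after induction. The nearest libraries of the classes were then only 1.01-fold apart. At baseline it lay on the other side (3.11, 2.66 and 2.95 against 4.24, 4.74 and 3.41 CPM). The difference from baseline was -1.11 ± 0.47 (unadjusted p = 0.0358, adjusted p = 1 in edgeR). CSF1R, the receptor that keeps macrophages alive, overlapped after induction, at 9.06, 4.2 and 7.09 CPM in LD and 5.52, 4.76 and 5.1 CPM in VHD (-0.41 ± 0.35, and -0.14 without LD 1), and its difference from baseline was -1.13 ± 0.49 (unadjusted p = 0.0378, adjusted p = 1 in edgeR). CD163, a scavenger receptor of resident macrophages, lay above LD without overlap at baseline (0.75) and overlapped after induction (-0.10 ± 0.31). It is named after its values were seen. CD14, of the same list, went the other way after induction, with overlap (300, 93.5 and 133 against 195, 517 and 174 CPM, 0.75 ± 0.54). Its difference from baseline was 0.59 ± 0.75.

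Neutrophil markers summed to between 22.3 and 42 CPM over the 6 libraries and those of stellate cells and collagen to between 259 and 473 CPM, both with overlap. KDR, the VEGF receptor of endothelium, stood at 20.9, 27.5 and 30.6 CPM in LD and 17.7, 13.9 and 18.8 CPM in VHD (-0.65 ± 0.29), within a sinusoidal list whose median was -0.10, and 0.23 without LD 1. MMP7, a protease of bile duct cells, stood at 5.67, 16.7 and 10.6 against 4.83, 5.48 and 3.61 CPM (-1.25 ± 0.54, and -0.82 without LD 2). The cholangiocyte list had a median of -0.26 over 9 genes, and 0.24 without LD 1. B and plasma cell markers summed to 2643 CPM in VHD 3 and to between 367 and 574 CPM elsewhere, because PRDM1 alone stood at 2070 CPM in VHD 3. In the other 5 libraries PRDM1, a repressor that drives plasma cell fate, stood at 1.32 to 5.56 CPM. The part of these cell types in the gene differences was not tested.

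None of 427 tested mature miRNAs differed between the classes at an adjusted p under 0.05 in edgeR (0%), and none did in the difference from baseline (0%) or at baseline (0%). At an unadjusted p under 0.05 there were 10 after induction in edgeR, where 21.4 would be expected without any difference. All 10 had higher values in VHD. DESeq2 gave 17 at this level and also called none. For the difference from baseline edgeR gave 3. The lowest adjusted p was 0.998 after induction, and standard errors on the log2 scale had a median of 0.76. All 3 VHD libraries lay above all 3 LD libraries for 34 miRNAs (7.96%) and below for 11 (2.58%). On the normalized values of the authors this split was 28 and 16.

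The rule named 6 miRNAs per direction with an average log2 CPM of at least 3. miR-31-5p (chromosome 15, 62389955 to 62389976) had the lowest p. It stood at 7.16, 14.4 and 9.25 CPM in LD and 41.8, 72 and 54 CPM in VHD, a log2 fold change of 2.37 ± 0.83 (unadjusted p = 0.0103, adjusted p = 0.998 in edgeR). The nearest libraries of the classes were 2.91-fold apart, but the reads were few, with counts of 2, 9 and 3 for LD against 6, 28 and 34 for VHD. At baseline it overlapped. miR-31 is best known from epithelia.

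miR-1225-5p stood at 14.3, 24 and 12.3 CPM in LD and 76.6, 46.3 and 57.2 CPM in VHD (1.75 ± 0.69), and miR-139-3p at 32.2, 11.2 and 33.9 against 125, 95.2 and 54 CPM (1.83 ± 0.72). miR-7167-5p had 1.63 ± 0.68, miR-485-5p, of the imprinted DLK1-DIO3 cluster, 1.69 ± 0.72, and miR-133b-3p, a muscle miRNA, 1.48 ± 0.68. Of these 6, miR-1225-5p, miR-485-5p and miR-133b-3p lay above LD without overlap at baseline as well, where 12 of the 427 miRNAs did (2.81%).

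The 6 with lower values were miR-143-5p, miR-509, miR-532-5p, miR-421, miR-548d-5p and miR-1226, with unadjusted p from 0.0669 to 0.137. miR-532-5p was the most abundant of them, at 913, 2247 and 1011 CPM in LD and 808, 391 and 81.1 CPM in VHD (-1.72 ± 0.92). VHD 1 was close to LD 1. VHD 3 was the lowest, as it was at baseline (73.3 CPM), and without it the value was -1.23. miR-143-5p, from a smooth muscle cluster, stood at 21.5, 30.3 and 24.7 against 0, 7.72 and 14.3 CPM; its VHD counts were 0, 3 and 9. A count of 0 in the shallowest miRNA library does not show absence.

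**Figure D5:**
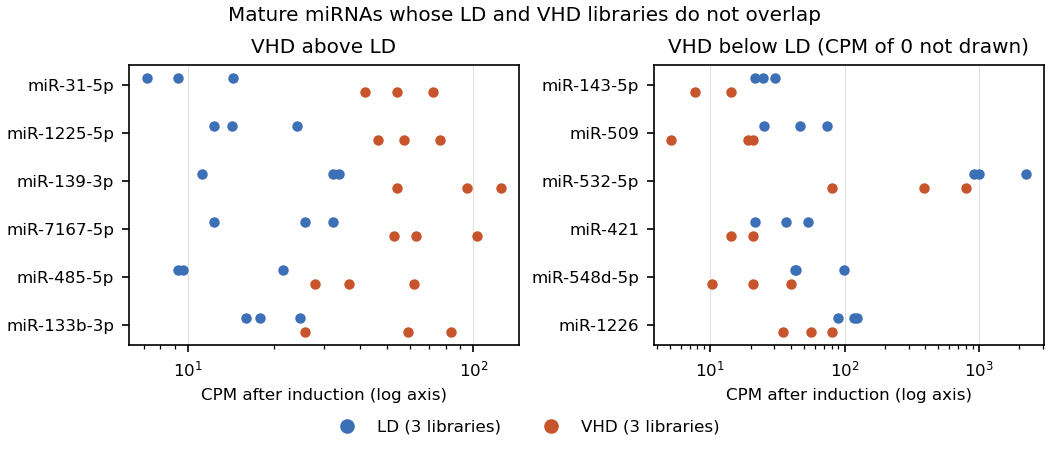
CPM after induction (log axis) of the 6 miRNAs above LD and the 6 below LD with the lowest unadjusted p among miRNAs without overlap. Each point is 1 library, with 3 per class, and values of 0 are not drawn; the classes are widest apart for miR-31-5p.

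miR-122a-5p, the form of miR-122 in the table, stood at 1036743, 616177 and 803169 CPM in LD and 742258, 102956 and 640970 CPM in VHD, a log2 fold change of -0.72 ± 0.92. A dominant miRNA can pass the nominal total of a library after TMM correction. VHD 2 was low and the other 5 were within the same range. The same library had 1060 CPM of miR-21-5p, where the other 5 had 41408 to 68684 CPM, and 2.57 CPM of miR-155, where they had 174 to 358 CPM. It had the most miR-148a-3p, 33394 CPM against 771 to 18662 CPM, so that its miRNAs differed both ways from the rest of its class.

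Leaving out that library moved the medians of the miRNA lists, and so did leaving out others. The 16 tested hepatocyte miRNAs had a median log2 fold change of -0.12 and 6 with higher values in VHD, against 0.09 and 56.4% over all miRNAs, and their sum was 143871 CPM in VHD 2 and 692971 to 1117250 CPM in the other 5. Without VHD 2 their median was -0.41, and without LD 1 it was 0.12. The let-7 family had 3 of 12 with higher values and a median of -0.33, with -0.13 without VHD 2 and -0.59 without VHD 3. Leukocyte miRNAs had 3 of 13 and a median of -0.46, with -0.13 without VHD 2 and -0.94 without VHD 1. Of 46 tested miRNAs of the imprinted DLK1-DIO3 cluster, 25 had higher values in VHD, and 4 lay above and 2 below LD without overlap. The median was 0.04, with -0.11 without VHD 2 and 0.27 without LD 1.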

How the data were processed

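Estimated counts per Ensembl transcript and per mature miRNA were used as deposited by the authors, with Partek, Bowtie, BWA and Mmul_8.0.1 named in the submitters' processing notes. Their versions and roles are not given there. Libraries were NEXTFLEX Combo-Seq from 500 ng of RNA with a RIN above 8.5, read for 76 bases, per the labels. The normalized tables the authors deposited hold signal values, equal to the raw count scaled by 1 factor per library, which served in 1 alternative (log2 of the value plus 1).

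The 40611 transcripts were summed into 23993 genes (15471 with a symbol) and rounded. Identifiers without a symbol took 16.2 to 17.6% of a library's counts. Genes and miRNAs were filtered with filterByExpr and fitted in edgeR 4.0.16 (R 4.3.3) with TMM factors as 4 group means over all 12 libraries. Classes were compared by its quasi-likelihood test, with p-values adjusted by Benjamini-Hochberg and a threshold of 0.05. The procedure was also run on simulated counts with the same spread for every gene, which does not show how it performs on these data. A standard error is the log2 fold change divided by the square root of F. Alternatives used DESeq2 1.42.0, limma 3.58.1, RLE factors, other filters, a replicate block, transcripts and leaving out each library.

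Libraries of 1 number across time are 1 animal, per the titles. Deviations from the group means correlated across time at 0.0748, -0.0162 and 0.351 for the LD animals, and at 0.406, -0.354 and 0.104 for the VHD animals. Between the classes a number joins different animals.

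Named genes were, per direction, the 12 genes (6 miRNAs) with the lowest unadjusted p among those without overlap whose average log2 CPM reached 1 (miRNAs: 3), up to 4 members of each of 43 gene and 11 miRNA lists, and a panel. The comparison, the lists (867 of 1124 names tested) and the panel were chosen with earlier results of these data known. Of the rest of the panel and lists, values are summarised. Some results that the rule takes are left out here. ALDH2, SCD, IGFBP1, IGFBP2 and GDF15 matched no identifier. Whether starts count from 0 or 1 could not be settled.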

Additional observations from a re-analysis of the deposited data

How the results depend on the processing

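The count of 0 genes after induction became 1 with DESeq2, without a filter, in the fit to the 6 libraries alone and with limma-trend on the deposited normalized values, each time ENSMMUG00000018314 with lower values in VHD; the cause was not tested. It remained 0 with RLE factors, at least 1 CPM in 3 libraries, transcripts, and each library left out. For the difference from baseline, DESeq2 called 1 gene, ENSMMUG00000045822, and the other settings 0. No setting called a miRNA. With the replicate number as a replicate block 0 genes were called, with 452 at an unadjusted p under 0.05; the correlations of equal numbers were 0.0374, -0.302 and 0.371, so LD and VHD animals share only a number. With the animal as replicate block in the difference from baseline 0 genes were called, with 177 at that level. Leaving out LD 1 moved the 448 genes at an unadjusted p under 0.05 to 1666, and leaving out LD 2 to 324. Added after seeing the data, a term for the division of 5 and 7 libraries gave 939, the fit without VHD post-induction 2 and VHD baseline 3 gave 503, and LD 2 and 3 against VHD 1 and 3 gave 861, all with 0 called.

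Of the log2 fold changes and differences of the named genes and miRNAs, 81 were followed through the settings, those of OAT, ZNRF3 and CD14 not among them. Of these 81, 74 kept their sign under every setting run. The exceptions were PRDM1 (-0.57 to 8.05 with 1 library left out), FASN (-0.37 to 1.20), CD163 (-0.31 to 0.08; 0.17 in LD 2 and 3 against VHD 1 and 3), ADH4 (-0.37 to 0.12; 0.05 without the 2 libraries that stand apart and 0.01 in LD 2 and 3 against VHD 1 and 3), DBP (-0.12) and CYP2E1 (0.01), both in LD 2 and 3 against VHD 1 and 3, and the difference from baseline of ENSMMUG00000018314 (-0.76 to 2.11). Of 416 medians of 26 lists under the settings, 392 moved by less than 1 SD between libraries of a class. The depth of the miRNA libraries, 157174 to 613359 counts, limits miRNAs of few counts.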

Other observations

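VHD 3 carried a set of genes that the other 5 animals did not. Of the genes with an average log2 CPM of at least 1, 15 (12 with a symbol) were at least 10 times as high in both of its libraries as in any library of the other animals, and each of the other 5 animals had 0 such genes. PRDM1 stood at 5601 CPM at baseline and 2070 CPM after induction, against at most 5.56 CPM elsewhere. DFFB, the nuclease of apoptotic DNA fragmentation, stood at 171 and 224 CPM (at most 1.94). SLC47A2, a drug and toxin extruder, stood at 51.4 and 62.2 CPM (at most 1.8), and UMODL1 at 182 and 79.5 CPM (at most 4.22). Others with a symbol were BEGAIN, EPHA8, FAM50B, LSAMP, PABPN1L, PMFBP1 and ZNF540. These genes were chosen after their values were seen, they describe 1 animal and not its class, and they recur in its biopsies before and after the induction.

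ENSMMUG00000045822 had the lowest p for the difference from baseline. It stood at 0.742, 7.05 and 3.64 CPM in LD and 0.552, 0.438 and 0.0902 CPM in VHD after induction, and at 0.346, 0.316 and 0.144 against 0.621, 4.31 and 1.11 CPM at baseline. The classes lay on opposite sides without overlap at the 2 times, with a difference of -6.45 ± 1.37 (unadjusted p = 0.00038, adjusted p = 1 in edgeR, and 0.0289 with DESeq2), at levels of a few CPM.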
